A study of Mus musculus with 27 samples.

Results

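Pressure overload of the left ventricle in mice that carry caPI3Kalpha was followed here in microRNAs, across 3 sham and 4 TAC hearts out of 27 libraries in the series. The 7 libraries were chosen by their labels alone: genotype caPI3Kalpha, small RNA, sham or TAC. The whole series holds 16 small RNA and 11 mRNA libraries of left ventricle from adult FVB mice, WT or caPI3Kalpha, collected 7 days after surgery. Every group shares the FVB strain, the age class, the tissue and the time, and sham animals were operated on as well. The sham group is caPI3Kalpha sham 5, 8 and 14, and the TAC group is caPI3Kalpha TAC 8, 9, 11 and 211. Each number names an animal within its group, so sham 8 and TAC 8 are separate hearts. WT hearts (4 sham, 5 TAC) enter the same statistical model. They share in its filter, scaling and estimate of spread, on which the caPI3Kalpha p-values depend, and their own changes are used for comparison. The labels give neither the promoter that drives the transgene nor the number of mouse lines.

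TAC, transverse aortic constriction, narrows the aorta so that the left ventricle must pump against a higher pressure, and the muscle thickens within days. caPI3Kalpha is an always active form of the enzyme phosphoinositide 3-kinase alpha, whose signal drives the heart growth of exercise and postnatal life. MicroRNAs (miRNAs) are short RNAs that guide the silencing machinery to messenger RNAs, mainly through the seed at bases 2 to 8, so that miRNAs with a common seed share many targets. In heart muscle, miR-208a, miR-208b and miR-499 lie in introns of myosin heavy chain genes, miR-208a in the adult gene Myh6 and miR-208b in Myh7, the gene of the fetal and stressed mouse ventricle. As a check of the genotype, Pik3ca, which encodes the subunit, stood at 115.4 and 195 RPKM in the mRNA of caPI3Kalpha sham 5 and 8 and at 110.5 and 101.3 in TAC 11 and 211, against 5.3 to 8.9 in the 7 WT hearts. An mRNA library exists for these 4 caPI3Kalpha hearts.

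Mature sequences of the miRNAs on which the results turn are shown here so that relatives with 1 seed can be compared. They come from RefSeq (GRCm38.p6), which gave a mature sequence for 22 of the 28 miRNAs that passed the test and for 36 named miRNAs in all. Capitals mark the seed. The 3 muscle myosin miRNAs come first, of which miR-208b and miR-208a-3p share the seed UAAGACG.
miR-208b: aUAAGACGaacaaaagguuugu
miR-208a-3p: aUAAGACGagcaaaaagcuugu
miR-499: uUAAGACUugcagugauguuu
The next 6 belong to pairs that share a seed and of which 1 member passed the test.
miR-146a: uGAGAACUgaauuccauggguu
miR-146b: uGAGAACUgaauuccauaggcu
miR-10a: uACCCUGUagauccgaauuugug
miR-10b: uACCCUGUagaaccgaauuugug
miR-107: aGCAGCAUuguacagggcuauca
miR-103: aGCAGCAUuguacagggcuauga
Members of the miR-30, miR-130 and miR-17 seed families follow.
miR-30a: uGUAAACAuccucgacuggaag
miR-30c: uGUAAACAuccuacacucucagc
miR-30e: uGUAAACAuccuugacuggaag
miR-130a: cAGUGCAAuguuaaaagggcau
miR-130b: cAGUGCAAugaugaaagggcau
miR-20a: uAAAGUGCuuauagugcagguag
miR-17: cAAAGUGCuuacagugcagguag
The last 5 have a seed that no other sequence printed here carries.
miR-9: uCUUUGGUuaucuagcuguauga
miR-184: uGGACGGAgaacugauaagggu
miR-127: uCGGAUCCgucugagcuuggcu
miR-21: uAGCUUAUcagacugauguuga
miR-1195: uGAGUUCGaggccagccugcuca
Counted from 1 at the 5′ end, miR-208b differs from miR-208a-3p by A10G, G16A and U18C, miR-10a from miR-10b by U12A alone, miR-107 from miR-103 by C22G, miR-30a from miR-30e by C13U, and miR-146a from miR-146b by G18A and U21C.

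The 7 caPI3Kalpha libraries held between 4541403 and 7676588 counted miRNA reads, and miR-22, miR-143 and miR-133a together took 40.04% to 46.4% of them. Levels are given as CPM, counts scaled to library size with TMM factors (trimmed mean of M values), and changes as log2 fold changes with their standard error (SE) from edgeR. Hearts of 1 group differed far beyond counting error, with a chi-square per degree of freedom of at least 293 between any 2 of them. Columns of the count table come in 2 forms, with a space before the animal number (sham 14, TAC 8 and TAC 9) and without (sham 5 and 8, TAC 11 and 211). The labels say nothing of these 2 library sets. Across miRNAs, Spearman's rho between libraries of 1 group was 0.985 to 0.992 within a set and 0.967 to 0.982 across sets, so the sets stand apart by more than the hearts within them. Each set holds sham and TAC hearts.

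Of 262 miRNAs with enough reads, 28 (10.7%) passed the test in caPI3Kalpha TAC against sham, edgeR's quasi-likelihood test with Benjamini-Hochberg adjustment under 0.05 over all miRNAs. TAC raised 12 of them (4.58%) and lowered 16 (6.11%). The median change over all 262 was -0.09, and 67 had an unadjusted p under 0.05. Only 9 of the 28 moved by 2-fold or more, 5 of them higher (miR-208b, miR-184, miR-673-5p, miR-146a and miR-382) and 4 lower (miR-1195, miR-9, miR-10a and miR-338-3p). The TAC and sham hearts did not overlap in 27 of the 28, against 52 (19.8%) of all miRNAs tested, and the exception was miR-382.

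Which hearts and which scaling enter the fit moved this count, so both are given here. Library totals without TMM shifted the median of all miRNAs to 0.10 and turned the split to 22 higher and 8 lower, and RLE factors (relative log expression) gave 14 higher and 10 lower. A term for the library set raised the count to 68 (26%), of which 26 (9.92%) were higher and 42 (16%) lower, and all 28 were among them in the same direction. Leaving out 1 library gave 6 calls without caPI3Kalpha TAC 9, 10 without TAC 11, 11 without sham 5, 16 without WT TAC 20, 17 without TAC 8, WT sham 6 or WT TAC 17, and 18 without sham 8 or WT TAC 2. With the 7 caPI3Kalpha libraries alone edgeR called 0 (55 at an unadjusted p under 0.05) and DESeq2 called 27. The calls of miR-9, miR-184, miR-208b, miR-127 and miR-146a held in all 16 fits that left out 1 library, while those of the other 23 held in 0 to 15. Fewest were kept for miR-139-5p (0), miR-145 and miR-208a-3p (1 each), miR-191 (2), miR-382 (2 of the 7 in which it was tested), miR-30e (3), miR-130b (4), miR-214 (6) and miR-19b, miR-34c and miR-673-5p (7 each).

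**Figure D1:**
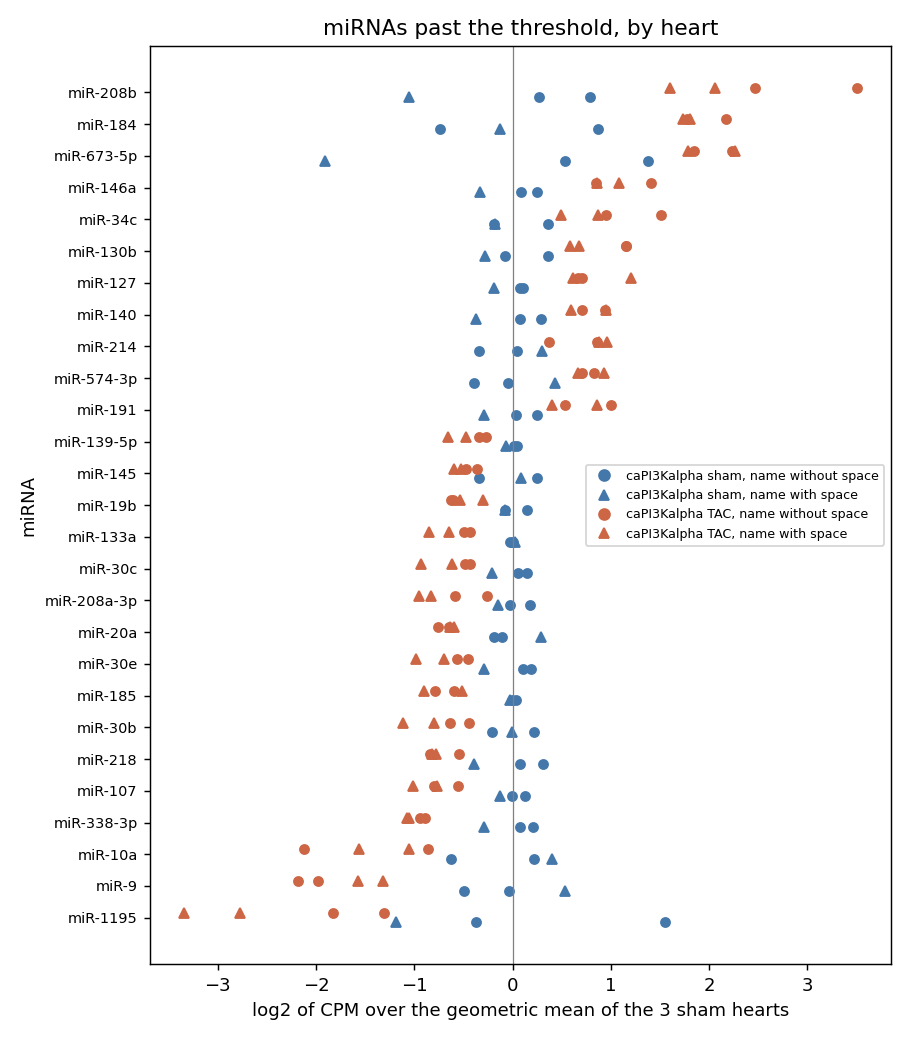
Each point is 1 heart: the horizontal axis is log2 of its CPM over the geometric mean of the 3 caPI3Kalpha sham hearts, and each line of the vertical axis is a miRNA past the threshold (27 of 28, miR-382 left out because it had no read in sham). Blue is sham, orange is TAC and triangles are libraries whose name has a space. TAC hearts lie to the right of all sham hearts in the upper 11 lines and to the left in the lower 16.

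Muscle miRNAs moved in opposite directions. The largest rise among tested miRNAs with reads in sham was that of miR-208b, the miRNA of the Myh7 intron. In sham 5, 8 and 14 it stood at 484, 694 and 193 CPM, and in TAC 8, 9, 11 and 211 at 1222, 1680, 2216 and 4557. Every TAC heart lay above every sham heart, TAC 211 highest and sham 14 lowest. The mean went from 457 ± 252 (SD, n = 3) to 2419 ± 1482 (SD, n = 4), a 5.29-fold rise (log2 2.40, SE 0.45, edgeR adjusted p = 0.00664). In the set with a space, which has 1 sham heart, the mean of TAC over sham was 7.52 and in the set without it 5.75.

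Its sister miR-208a-3p, from the Myh6 intron, fell by 0.64 on the log2 scale (SE 0.20, edgeR adjusted p = 0.0487), from 1324, 1151 and 1062 CPM in the sham hearts to 661, 606, 980 and 785 in the TAC hearts. The groups did not overlap, but the call is at the edge of the threshold and held in 1 of 16 fits without 1 library. The opposite arm, miR-208a-5p, stood at -0.56 (SE 0.29, adjusted p = 0.233) and passed with the library set term (-0.58, edgeR adjusted p = 0.0237). Because miR-208b and miR-208a-3p have the same seed, their summed level was computed as well. The sum was 1808, 1845 and 1255 CPM in sham and 1882, 2286, 3197 and 5342 in TAC, 1.94 times as high on average. TAC 8, the lowest TAC heart, was only just above sham 8.

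Host messenger RNA could be set beside both miRNAs in 4 hearts. MiR-208b in TAC 11 and TAC 211 was 3.76 and 7.74 times the mean of sham 5 and 8, whereas Myh7 was 0.914 and 1.68 times. Myh7 stood at 984 and 833.8 RPKM (reads scaled to library size and transcript length) in sham 5 and 8 and at 831.1 and 1525.8 in TAC 11 and 211. Myh6 read 3796.2 and 3032.4 RPKM in the sham hearts and 2872.2 and 2643.3 in the TAC hearts. With 2 hearts a group the smallest two-sided exact p is above any usual threshold, so these are values only, and how reads were divided between the 2 similar myosin genes is not given in the sources used here.

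MiR-133a, abundant in muscle and a known brake on hypertrophic growth, fell by 0.60 (SE 0.13, edgeR adjusted p = 0.00876). It read 91562, 93803 and 95191 CPM in sham and 59543, 51833, 66477 and 69206 in TAC. The sham hearts were close together and all TAC hearts lay lower. The call was lost without sham 5, TAC 8 or TAC 9, and the change was -0.41 by library totals without TMM. MiR-1, expressed from the same transcripts as miR-133a, stood at -0.33 (adjusted p = 0.386), miR-133b at -0.55 (0.221) and miR-499 at -0.53 (0.199), all 3 with overlapping groups. With the library set term miR-499 passed (-0.46, edgeR adjusted p = 0.0103). Of 7 tested heart and muscle miRNAs 1 passed upward and 2 downward, where 4.58% and 6.11% of all miRNAs did, with a median of -0.55 against -0.09 over all miRNAs. With the set term 1 passed upward and 4 downward, where 9.92% and 16% of all did. MiR-206, the skeletal muscle miRNA, had no read in any of the 7 hearts, and the summed CPM of the heart and muscle list was 103427 to 109787 in sham and 62891 to 82647 in TAC. Most of that sum was miR-133a in every heart.

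The fall with the smallest p was that of miR-9, best known from neural progenitors and neurons. It stood at 38.4, 53.1 and 78.4 CPM in sham and at 18.2, 21.7, 11.98 and 13.8 in TAC. The highest TAC heart lay well below the lowest sham heart. The mean went from 56.6 ± 20.2 (SD, n = 3) to 16.4 ± 4.40 (SD, n = 4), a log2 change of -1.78 (SE 0.27, edgeR adjusted p = 0.00161), and the fold was similar in both sets (mean TAC over sham 0.255 with a space and 0.281 without). Of the other nerve markers only miR-128 had enough reads, and it stood at -0.31 (adjusted p = 0.325). The summed CPM of the nerve list with miR-9 included was 149 to 197 in sham and 87.4 to 143 in TAC, and what nerve tissue has to do with the fall of miR-9 was not tested. In bulk tissue fewer cells of a type and less RNA per cell cannot be told apart, here and for every marker below.

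MiR-184, abundant in the eye and in nervous tissue, rose 3.30-fold (log2 1.72, SE 0.32, edgeR adjusted p = 0.00664) from a low level. It read 9.66, 3.16 and 4.86 CPM in the sham hearts and 17.6, 18.5, 23.8 and 18.1 in the TAC hearts. All TAC hearts were above all sham hearts, and 3 of the 4 lay within 1 CPM of each other. Its change ranged from 1.38 to 2.31 over the fits without 1 library.

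Among miRNAs linked to inflammatory signalling, miR-146a rose. It belongs to a pair with miR-146b that is induced through NF-kB and represses adaptor proteins of the same pathway. MiR-146a stood at 759, 852 and 570 CPM in sham and at 1301, 1516, 1290 and 1904 in TAC, 2.07-fold higher (log2 1.05, SE 0.22, edgeR adjusted p = 0.00876), with no overlap. MiR-146b read 611, 569 and 419 CPM in sham and 577, 797, 889 and 1064 in TAC, where TAC 8 lay within the sham range. Its change of 0.64 (SE 0.20) had an edgeR adjusted p of 0.0504, and 0.00346 with the library set term. Summed over the shared seed, the pair was at 1371, 1421 and 989 CPM in sham and 1878, 2314, 2179 and 2968 in TAC, 1.85 times as high on average.

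The leukocyte markers were read beside this rise. Of 7 tested leukocyte miRNAs 0 passed in edgeR in either direction (median -0.24), where 10.7% of all miRNAs did. With so few members a count of 0 is not far from that share. An unadjusted p under 0.05 was found for 1 of the 7, against 67 of all 262, and DESeq2 called 0 of the 7. Their summed CPM was 901 to 954 in sham and 937 to 1225 in TAC. Of these, miR-142-5p stood at 0.78 (adjusted p = 0.184), miR-155 at -0.26 (0.333) and miR-223 at -0.24 (0.505). With the set term miR-142-5p passed (0.96, edgeR adjusted p = 0.00154). The part of leukocytes in the rise of miR-146a was not tested.

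MiR-21, which in overloaded and fibrotic hearts is usually among the miRNAs that rise, did not pass here. It read 5735, 5529 and 3731 CPM in the sham hearts and 3768, 4213, 6527 and 6175 in the TAC hearts, a change of 0.05 (SE 0.26, edgeR adjusted p = 0.922). The 3 hearts of the set with a space, sham 14 among them, lay below all 4 hearts of the other set. Within each set the TAC hearts were above the sham hearts by a small margin (mean TAC over sham 1.07 with a space and 1.13 without).

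Among 21 miRNAs on a list of known risers under pressure load, 4 passed the threshold upward (miR-208b, miR-146a, miR-214 and miR-34c) and 0 downward, with a median of 0.45. Rises in caPI3Kalpha were 4.58% of all miRNAs. In WT hearts 8 of the 21 rose, where 13% of all miRNAs did, with a median of 0.46, close to that in caPI3Kalpha. With the library set term 10 of the 21 passed upward in caPI3Kalpha, where 9.92% of all miRNAs did. MiR-34c, a p53-responsive miRNA made together with miR-34b, read 54.3, 79.1 and 54.6 CPM in sham and 86.7, 113, 176 and 119 in TAC (log2 0.98, SE 0.28, edgeR adjusted p = 0.0342). Its groups did not overlap, although TAC 8 lay close to sham 8.

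The rest of that family did not pass. MiR-34a stood at 0.30, miR-34b-5p at 0.68 and miR-34b-3p at 0.60, the last from 2 to 17 reads in each of the 7 libraries. MiR-214, transcribed with miR-199a from the strand opposite Dnm3, rose from 45.6, 34.96 and 54.4 CPM to 85.9, 81.7, 80.3 and 57.1 (log2 0.76, SE 0.21, edgeR adjusted p = 0.0327). TAC 211 lay close to sham 14 and the other 3 TAC hearts well above. MiR-199a-5p stood at 0.52 (adjusted p = 0.434), miR-222 at 0.49 (0.0743) and miR-221 at 0.13 (0.645). With the set term miR-199a-5p (0.62, edgeR adjusted p = 0.012) and miR-222 (0.46, edgeR adjusted p = 0.0305) passed.

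The imprinted miRNA cluster on chromosome 12, expressed from the maternal chromosome, had 26 members tested. In caPI3Kalpha hearts 3 of the 26 rose and 0 fell, where 4.58% and 6.11% of all miRNAs did, with a median of 0.28. MiR-382 stays the highest of the 26 at its floor value, given below, so that value could not move the median. MiR-127, antisense to the imprinted gene Rtl1, read 1201, 1224 and 1000 CPM in sham and 1738, 2615, 1859 and 1807 in TAC (log2 0.81, SE 0.17, edgeR adjusted p = 0.00876). TAC 9 stood above the other 3, which were alike. MiR-673-5p rose 2.77-fold (log2 1.47, SE 0.39, edgeR adjusted p = 0.0251) from 26, 15 and 2 reads in the sham libraries to 53, 44, 55 and 30 in the TAC libraries. Without sham 5 its change was 2.18, and sham 14, with 2 reads, was far below the other sham hearts.

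MiR-382 had 0 reads in each sham library and 14, 6, 7 and 0 in TAC 8, 9, 11 and 211. Against a floor of 3 counts over the sham group it was 6.52-fold higher per counted read, and TAC 211 did not differ from sham. No count of 1 occurs in these data, so whether a 0 can stand for 1 read is not known. The fold is therefore not a strict lower bound. It passed edgeR with an adjusted p of 0.0449 but of the 16 fits without 1 library 7 kept it past the filter on low counts and 2 kept its call. None of the tested miRNAs within 10 kb of miR-127 or miR-382 passed, where 10.7% of all miRNAs did. With so few neighbours tested, the absence of calls is not far from that share. Near miR-127 these ranged from miR-540-3p at -0.46 to miR-433 at 0.85, and near miR-382 from miR-381 at -0.22 to miR-668 at 0.80.

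The remaining rises were between 1.63-fold and 1.83-fold. MiR-140, best known from cartilage, read 55.6, 48.0 and 35.2 CPM in sham and 68.6, 87.9, 73.9 and 87.2 in TAC (log2 0.78, SE 0.19, edgeR adjusted p = 0.0156). MiR-574-3p went from 21.3, 16.9 and 29.9 to 35.02, 42.0, 39.1 and 36.1 CPM (log2 0.75, edgeR adjusted p = 0.0251). MiR-191, processed from the same transcript as miR-425, went from 9171, 10631 and 7322 to 11800, 16259, 12960 and 17957 CPM (log2 0.71, edgeR adjusted p = 0.0449), and its call held in 2 of 16 fits without 1 library. In none of the 3 did the groups overlap, and TAC 8 was the lowest TAC heart for each. MiR-425 itself stood at 0.28 (adjusted p = 0.36).

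MiR-130b rose from 3.64, 4.92 and 3.16 CPM to 6.15, 5.78, 8.56 and 8.53 (log2 0.88, SE 0.25, edgeR adjusted p = 0.0385), with all TAC hearts above all sham hearts. Its relatives with the seed AGUGCAA did not follow it. MiR-130a stood at -0.37 (adjusted p = 0.0902), with every TAC heart below every sham heart, and miR-301a at -0.17 (0.602). With the set term miR-130a passed downward (-0.35, edgeR adjusted p = 0.0161). By library totals without TMM miR-301a was at 0.02. Their summed CPM was 1485, 1506 and 1309 in sham and 981, 987, 1363 and 1313 in TAC, 0.81 times on average, with TAC 11 and 211 inside the sham range.

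Most falls were under 2-fold, those of the miR-30 family among them, which is rich in cardiomyocytes and described to restrain connective tissue growth factor. Of 5 members 3 fell and 0 rose, where 6.11% and 4.58% of all miRNAs did, with a median of -0.61. MiR-30b went from 3203, 2370 and 2731 CPM in sham to 1578, 1265, 1762 and 2016 in TAC (log2 -0.74, SE 0.16, edgeR adjusted p = 0.00876). MiR-30c, at 9269, 9863 and 7730 against 5795, 4671, 6368 and 6588 CPM, fell by 0.61 (SE 0.14, edgeR adjusted p = 0.0108). MiR-30e, at 46055, 43614 and 33000 against 24961, 20508, 29500 and 27333 CPM, fell by 0.68 (SE 0.18, edgeR adjusted p = 0.0251), a call that held in 3 of 16 fits without 1 library. In each of the 3 all TAC hearts were below all sham hearts, TAC 9 lowest.

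MiR-30a and miR-30d did not pass. They stood at -0.16 and -0.14, and at 0.02 and 0.04 by library totals without TMM. MiR-30c and miR-30e are processed from hairpins less than 10 kb apart in an intron of Nfyc. MiR-30c has 2 genes, so its reads cannot all be assigned to Nfyc. The Nfyc messenger read 6.5 and 4.7 RPKM in sham 5 and 8 and 4.8 and 4.4 in TAC 11 and 211. MiR-30a differs from miR-30e by C13U alone, so single reads with an error at that base could be counted under the wrong name.

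The seed GUAAACA, summed over miR-30a, miR-30c and miR-30e, was at 119046, 119711 and 99580 CPM in sham and 79997, 77510, 91363 and 101966 in TAC. TAC 211 lay above sham 14, so the sums overlapped. MiR-30b and miR-30d are not in this sum because no sequence was obtained for them. All 5 family members together stood at 124447 to 150747 CPM in sham and 98095 to 126343 in TAC, and these overlapped too. The miR-29 family, described to target collagens, had 0 of 3 members past the threshold in edgeR, where 10.7% of all miRNAs passed. Of the 3, 1 had an unadjusted p under 0.05, against 67 of all 262, and 0 passed in DESeq2. MiR-29a stood at -0.31, miR-29b at -0.67 and miR-29c at -0.39, with overlapping groups. With the library set term miR-29b passed (-0.61, edgeR adjusted p = 0.00492).

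**Figure D2:**
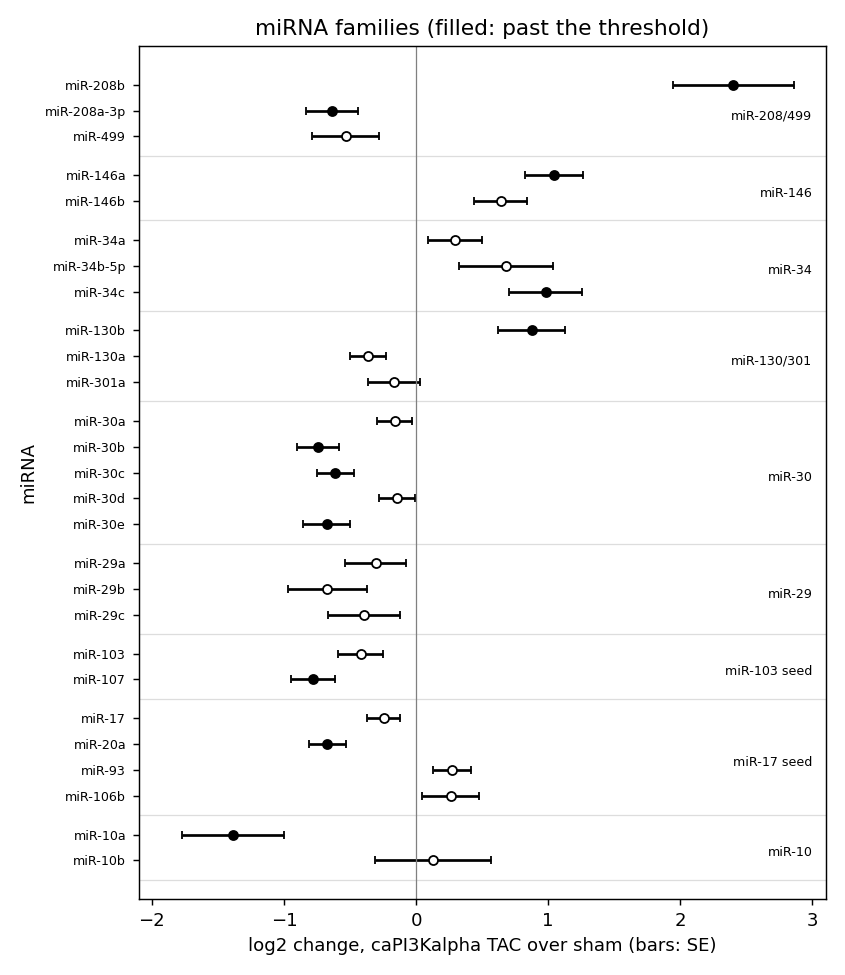
The horizontal axis is the log2 change in caPI3Kalpha TAC over sham with its standard error as a bar (edgeR, 3 sham and 4 TAC hearts), and miRNAs on the vertical axis are grouped by family. Filled points passed the threshold: miR-208b at 2.40 lies opposite miR-208a-3p at -0.64, and miR-10a at -1.39 lies apart from miR-10b at 0.13.

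Differences within pairs that share a seed were not tested, and the values of each member are given side by side. MiR-10a, which lies among the Hox genes, read 21444, 38415 and 43778 CPM in sham and 11162, 15950, 7585 and 18191 in TAC (log2 -1.39, SE 0.38, edgeR adjusted p = 0.0327). The groups did not overlap, and sham 5 was close to TAC 211. MiR-10b, a single base different, stood at 0.13 (SE 0.44, adjusted p = 0.875), with 8036 to 20964 CPM in sham and 9579 to 24796 in TAC. Its groups overlapped. The call of miR-10a was lost without sham 8, sham 14, TAC 8, TAC 9 or TAC 11.

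MiR-107, from an intron of Pank1, went from 258, 283 and 238 CPM to 152, 129, 176 and 148 (log2 -0.78, SE 0.17, edgeR adjusted p = 0.00876). MiR-103, from introns of Pank2 and Pank3, stood at -0.42 (SE 0.17, adjusted p = 0.129), and its groups did not overlap either. Both were lower in all TAC hearts. Pank1 messenger read 10.5 and 10.6 RPKM in sham 5 and 8 and 9.2 and 7.7 in TAC 11 and 211. As miR-107 and miR-103 differ at base 22 alone (C22G), shorter reads do not tell them apart.

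Of the members of the miR-17-92 transcript, whose miRNAs are known for promoting proliferation, miR-20a and miR-19b fell. MiR-19b has 2 genes, the other one beside miR-20b and miR-363-3p, so its reads cannot be assigned to 1 transcript. MiR-20a read 65.0, 69.0 and 90.8 CPM in sham and 47.8, 49.0, 47.3 and 43.9 in TAC (log2 -0.67, SE 0.14, edgeR adjusted p = 0.00876). The 4 TAC hearts were tightly grouped below the sham hearts. MiR-19b read 130, 112 and 111 CPM in sham and 95.5, 81.3, 76.1 and 76.9 in TAC, a fall of 0.51 (edgeR adjusted p = 0.0251). By library totals without TMM both were still lower, at -0.47 and -0.31, and neither passed.

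Their neighbours on the transcript did not pass, with miR-17 at -0.24, miR-19a at -0.49, miR-92a at -0.24 and miR-18a at 0.26. Of the 10 tested members of the cluster and its copies 2 fell and 0 rose, where 6.11% and 4.58% of all miRNAs did, with a median of -0.08. Over the seed AAAGUGC the sum of miR-20a, miR-17, miR-93 and miR-106b was 448 to 560 CPM in sham and 519 to 612 in TAC. This sum overlapped between the groups. Most of it was miR-93 in every heart (1953 reads in sham 5, against 357 of miR-20a), so the sum mainly shows that member. MiR-93 (0.27) and miR-106b (0.26) leaned upward without passing.

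Single falls completed the list. MiR-338-3p, from an intron of the neural kinase gene Aatk, read 93.5, 85.4 and 66.3 CPM in sham and 38.9, 38.5, 43.7 and 42.2 in TAC (log2 -1.002, SE 0.23, edgeR adjusted p = 0.0108). MiR-185 read 71.1, 73.3 and 70.2 against 49.9, 38.3, 47.3 and 41.3 CPM (log2 -0.69, edgeR adjusted p = 0.0104). MiR-218, from introns of the guidance genes Slit2 and Slit3, read 33.0, 38.8 and 23.8 against 18.2, 17.7, 17.4 and 21.4 CPM (log2 -0.77, edgeR adjusted p = 0.0327). For these 3 the TAC hearts lay close together and below every sham heart.

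MiR-139-5p, from an intron of Pde2a, fell by 0.43 (edgeR adjusted p = 0.0444), from 123 to 133 CPM in sham to 81.5 to 106.7 in TAC. Its call held in 0 of 16 fits without 1 library. MiR-145, a smooth muscle miRNA, fell by 0.51 (edgeR adjusted p = 0.0475), from 813, 539 and 725 to 475, 450, 490 and 531 CPM. Its call held in 1 of 16 fits without 1 library. TAC 211 lay just under sham 8. MiR-143, made from the same transcript, stood at -0.18 (adjusted p = 0.654) and at 0.02 without TMM, and the summed CPM of the 2 overlapped between sham (144784 to 246729) and TAC (122869 to 187500).

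MiR-1195 had the largest fall by fold of the 28, 6.03 times lower in TAC (log2 -2.59, SE 0.68, edgeR adjusted p = 0.0251). It read 18.8, 71.3 and 10.7 CPM in sham and 3.55, 2.39, 6.85 and 9.84 in TAC. TAC 211 was next to sham 14, and sham 8 alone was far above the rest. Without sham 8 the change was -1.42 and the call was lost, as it was without TAC 8, TAC 9 or TAC 11. Its sequence, printed above, resembles the B1 repeats that are scattered over the mouse genome.

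Of miRNAs that missed the threshold although their groups did not overlap, the largest by fold were miR-1959 (-1.85, adjusted p = 0.0678), miR-3084 (1.79, 0.191), miR-224 (-1.11, 0.0844), miR-720 (-1.04, 0.0678) and miR-3096-5p (0.97, 0.147). MiR-3084 was counted 3, 6 and 0 times in sham and 10, 6, 15 and 17 times in TAC. With the library set term miR-3084 (2.06, edgeR adjusted p = 0.031) and miR-720 (-1.02, edgeR adjusted p = 0.0401) passed. The cell cycle brakes of the miR-15, miR-16, miR-195 and miR-497 family, 6 tested, had a median of 0.42. In edgeR 0 of the 6 passed, where 10.7% of all miRNAs did, and DESeq2 called 2 of them. An unadjusted p under 0.05 was found for 2 of the 6, against 67 of all 262. With the library set term 3 of the 6 rose, where 9.92% of all miRNAs did. The let-7 family with miR-98, 9 tested, had a median of -0.06 and the 4 miR-181 members one of -0.12, both with 0 calls in edgeR (0 and 1 at an unadjusted p under 0.05, 0 and 0 in DESeq2). With the set term 4 of the 9 and 1 of the 4 fell, where 16% of all miRNAs did.

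Red cell miRNAs varied widely between hearts of 1 group. The sum of miR-451 and miR-144, which are made in red cell precursors, was 70.7, 774 and 193 CPM in sham and 1716, 1493, 2284 and 60.1 in TAC. TAC 211 had the lowest level of all 7 hearts, and the other 3 TAC hearts lay above every sham heart. MiR-451 stood at 1.99 (SE 1.00, edgeR adjusted p = 0.221) and miR-144 at 2.14 (SE 1.04, adjusted p = 0.209). The alpha globin gene Hba-a1, chosen after its values were seen, read 4.9 and 104.9 RPKM in sham 5 and 8 and 314.4 and 12.5 in TAC 11 and 211, low in the same 2 hearts. The part of blood in other changes was not tested.

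The endothelial miR-126 gave no single direction, with miR-126-3p at -0.44 (adjusted p = 0.076) and miR-126-5p at 0.23 (0.636). With the set term miR-126-3p passed (-0.39, edgeR adjusted p = 0.00408). The sum of both arms was 29205 to 69621 CPM in sham and 46181 to 78006 in TAC. Epithelial miRNAs, of which 4 had enough reads and miR-96 had none, had 0 calls in edgeR, where 10.7% of all miRNAs passed. Of the 4, 1 had an unadjusted p under 0.05, against 67 of all 262, and 0 passed in DESeq2. The epithelial sums were 223 to 269 CPM in sham and 204 to 256 in TAC.

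**Figure D3:**
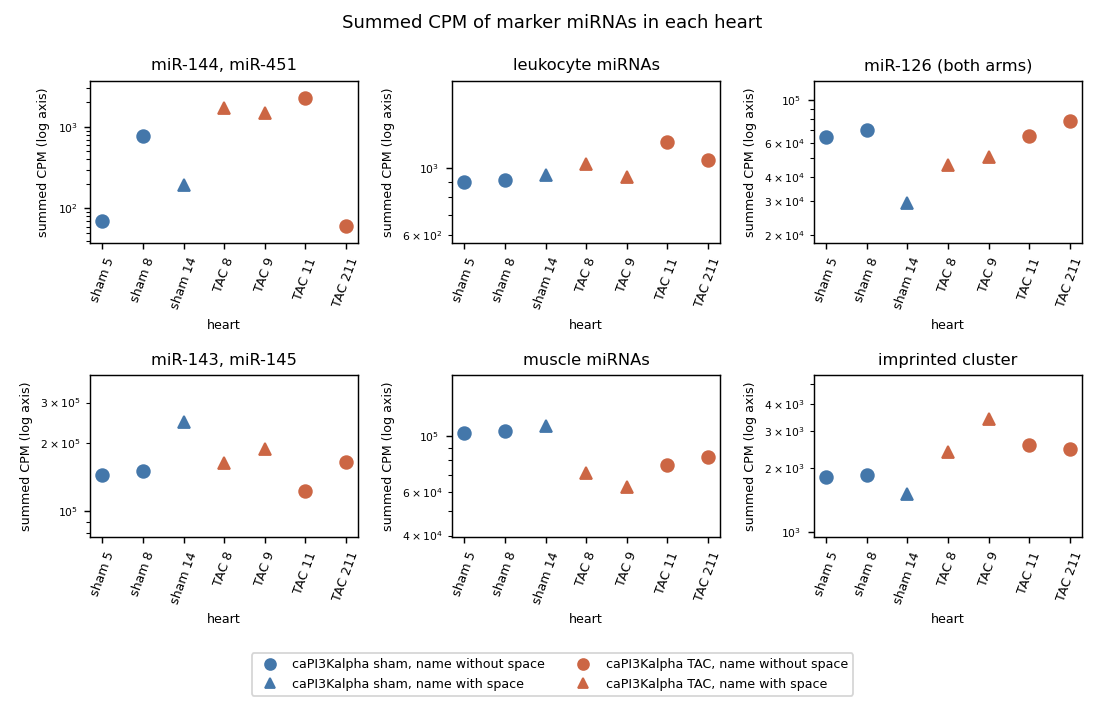
Each panel gives the summed CPM of a marker list on a log axis for the 7 caPI3Kalpha hearts, blue for sham and orange for TAC, with triangles for libraries whose name has a space. The muscle list (62891 to 82647 CPM in TAC, 103427 to 109787 in sham) and the imprinted cluster (2395 to 3425 in TAC, 1513 to 1857 in sham) separate the groups, while miR-144 with miR-451 spans 60.1 to 2284 within TAC. Most of the muscle sum is miR-133a (91562 of 103427 CPM in sham 5). Most of the cluster sum is miR-127 (1201 of 1822 CPM in sham 5), so these sums mainly show those 2 members.

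How far the caPI3Kalpha ventricle shared the response of the WT ventricle was read in the same model. In WT 53 miRNAs (20.2%) passed, 34 higher (13%) and 19 lower (7.25%). Both genotypes passed for 14 miRNAs, 8 higher and 6 lower, all in the same direction, which is 50% of the caPI3Kalpha calls and 26.4% of the WT calls. Of the 28 caPI3Kalpha calls 27 had the same sign in WT, and miR-218 (0.06 in WT) was the exception, while over all 262 miRNAs 72.9% had the same sign. Spearman's rho of the 2 sets of changes across miRNAs was 0.528, a description only, since miRNAs of 1 heart are not independent and all libraries were scaled together.

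**Figure D4:**
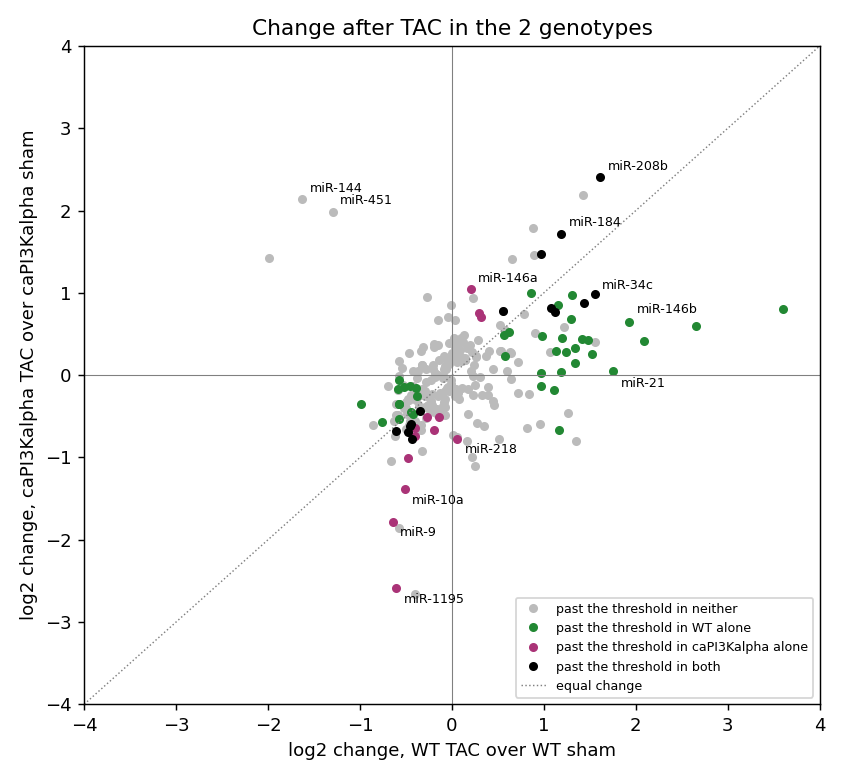
Each point is a miRNA, with its log2 change after TAC in WT on the horizontal and in caPI3Kalpha on the vertical axis, coloured by the genotype in which it passed the threshold (miR-382 left out). MiR-208b and miR-184 passed in both, while miR-21 (1.76 in WT) and miR-146b (1.93 in WT) lie near the horizontal axis or well under the dotted line of equal change.

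The difference between the genotypes was tested as an interaction, the change in caPI3Kalpha minus the change in WT, and 2 miRNAs (0.763%) passed. MiR-21 rose in WT from 5213, 4406, 3895 and 3447 CPM in sham to 19938, 17150, 11447, 10444 and 12670 in TAC, a change of 1.76, whereas the caPI3Kalpha hearts gave 0.05. The difference was -1.71 (edgeR adjusted p = 0.0216). All 5 WT TAC hearts lay above all 4 caPI3Kalpha TAC hearts.

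MiR-146b in WT hearts went from 484, 414, 380 and 453 CPM after sham to 1922, 1650, 1616, 1728 and 1335 after TAC (1.93), and the difference was -1.29 (edgeR adjusted p = 0.0216). The lowest WT TAC heart was above the highest caPI3Kalpha TAC heart. Each of the 2 calls held in 3 of 16 fits without 1 library, with differences from -1.89 to -1.50 for miR-21 and -1.44 to -1.09 for miR-146b, and adjusted p from 0.0131 to 0.122. With the library set term 14 miRNAs passed, 1 upward and 13 downward.

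The miRNAs that lead the caPI3Kalpha response were not shown to differ from WT. For miR-208b the interaction was 0.79 (adjusted p = 0.666), for miR-184 0.53 (0.709), for miR-146a 0.84 (0.156) and for miR-9 -1.14 (0.151). MiR-9 passed the interaction with the set term (-1.17). MiR-146a read 641 to 781 CPM in WT sham and 614 to 1144 in WT TAC, so that the WT groups overlapped where the caPI3Kalpha groups did not. MiR-208b reached 886 to 1646 CPM in WT TAC, against 1222 to 4557 in caPI3Kalpha TAC.

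The imprinted cluster had a smaller median change in caPI3Kalpha than in WT, and the difference of the lists was not tested. Its median change was 1.12 in WT, where 15 of 26 members rose (13% of all miRNAs), and 0.28 in caPI3Kalpha, where 3 rose. The interaction was negative in 24 of the 26, with a median of -0.81, against 140 of all 262 miRNAs and a median of -0.05. In edgeR without the set term 0 of the 26 passed it, where 0.763% of all miRNAs did, and 2 passed it in DESeq2. An unadjusted p under 0.05 was found for 12 of the 26 and for 39 of all 262 miRNAs. With the library set term 6 members passed the interaction, miR-541, miR-431, miR-410, miR-409-3p, miR-300 and miR-434-5p, chosen after their values were seen. In sham hearts the summed CPM was 1620 to 1774 for WT and 1513 to 1857 for caPI3Kalpha. In TAC hearts it was 3172 to 4019 for WT and 2395 to 3425 for caPI3Kalpha, where TAC 9 alone reached the WT range. Most of each sum was miR-127.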

How the data were processed

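Small RNA was sequenced from 16 left ventricles and mRNA from 11. Raw counts of reads per miRBase version 16 name make up the miRNA table as the authors deposited it, per the file headers. The authors' mRNA table gives RPKM, per the file headers, for genes that reach 3 RPKM. The submitters' processing notes list CASAVA 1.6, Bowtie, Partek 6.5 and the build mm9 without roles, and how reads were mapped is not given in the sources used here. No count of 1 occurs in the miRNA table while 428 are 2, 8 of 421 names have no read and no starred names are listed. Table names without an arm were matched to the RefSeq arm known as the main product.

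Counts were tested with edgeR 4.0.16 in R 4.3.3 (glmQLFit and glmQLFTest, TMM factors, filterByExpr, 1 model of 4 groups over 16 libraries, two-sided), with Benjamini-Hochberg adjustment and a threshold of 0.05 with no fold limit. All groups share the estimate of spread. The test was tested on simulated data. RPKM of host genes is given per heart without a test. Animal numbers name the samples, and p-values set each change against a spread estimated over all 16 libraries. Without the set term that spread includes the difference between the library sets. Intervals were not computed for single counts. The fold for miR-382 uses a floor of 3 counts over the sham group, takes its TAC reads as exact and covers counting error only.

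Named miRNAs are all those past the threshold in the caPI3Kalpha comparison or the interaction, a set of heart miRNAs whatever their p, the other arms, up to 3 members of each list described, and the 5 largest changes without overlap that missed the threshold; miR-17, miR-93, miR-106b and neighbours were added for their seed or position. The miRNAs, lists and tests were chosen with earlier results of these data known. Alternatives were DESeq2 1.42.0, library totals, RLE factors, 2 other filters, the library set, the 7 libraries alone and leaving out each library. DESeq2 on the 7 libraries alone and edgeR on them with a set term were added after seeing the data.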

Additional observations from a re-analysis of the deposited data

Results flagged for a closer look

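The 4 caPI3Kalpha TAC hearts were checked for each of 72 named miRNAs, and for 6 of them 1 heart lay farther from the rest than Dixon's limit allows. Chance alone gives about 1 in 20. The gap to the nearest heart as a share of the range is given for each. For miR-184 heart TAC 11 was high (0.834), and for miR-127 heart TAC 9 was high (0.836). Heart TAC 211 was low for miR-214 (0.836), miR-382 (0.866), miR-451 (0.891) and miR-144 (0.835). Libraries TAC 8, TAC 9 and TAC 11 had a higher CPM of miR-451 and miR-144 than any sham library.

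The change after TAC differed between the genotypes by the interaction test for miR-21 (-1.71) and miR-146b (-1.29), both smaller in caPI3Kalpha (edgeR adjusted p = 0.0216 for each). Each of these calls held in only 3 of 16 fits without 1 library, with an edgeR adjusted p of up to 0.122.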

How the results depend on the processing

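No paired analysis was possible because sham and TAC hearts come from separate animals. The number 8 occurs in both caPI3Kalpha groups but names a separate heart in each. The 28 calls became 68 with the library set term, 18 within the set with a space, where sham 14 is the lone caPI3Kalpha sham heart and is assumed to vary like the other groups, 18 within the set without it, 0 with the 7 caPI3Kalpha libraries alone and 43 with those 7 and a set term, and leaving out 1 library gave 6 to 24. DESeq2 called 36, library totals 30, RLE factors 24, no filter 19, a mean of at least 10 CPM 28, and DESeq2 on the 7 libraries 27. The 2 interaction calls became 5 in DESeq2, 4 by library totals, 4 at 10 CPM, 14 with the set term, 0 and 1 within the sets with and without a space, and 0 to 5 leaving out 1 library. None of the 28 called miRNAs changed sign under any alternative that gave a value, although each lost its call in at least 1. Sign changes occurred in miRNAs that had not passed. By library totals miR-30a stood at 0.023, miR-30d at 0.045, miR-143 at 0.020 and miR-301a at 0.018, and at a mean of 10 CPM miR-30a stood at 0.011, miR-30d at 0.032 and miR-143 at 0.019. Within the set with a space miR-221 was at -0.068, miR-30d at 0.072, miR-301a at 0.23 and miR-19a at 0.12, and within the other set miR-30a was at 0.013, miR-143 at 0.053 and miR-223 at 0.12. Leaving out 1 library gave ranges of -0.15 (without sham 14) to 0.19 for miR-21, -0.026 (without sham 8) to 0.25 for miR-221, -0.25 to 0.022 (without sham 5) for miR-30d, -0.12 (without sham 14) to 0.45 for miR-126-5p, -0.30 to 0.093 (without sham 14) for miR-143, -0.050 (without TAC 211) to 0.35 for miR-99b and -0.17 (without sham 5) to 0.42 for miR-10b. For the changes tied to fewer hearts, fewer degrees of freedom remain; otherwise the cause was not tested. Depth limits miR-382, miR-3084, miR-673-5p and miR-34b-3p, whose counts per library stay low.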
